A study of Homo sapiens with 8 samples.

Results

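Translation initiation factors and the eIF2 kinases were followed in hepatocellular carcinoma (HCC) cells treated with boron and curcumin. The members are the protein-coding genes of GENCODE release 44 on chromosomes 1 to 22 whose symbol starts with EIF and a digit, which finds 53 genes. Of these, 49 had an assigned transcript, among 17253 genes that had one in at least 1 library. The study sequenced the RNA of HepG2 and Hep3B, established human HCC lines given as wild type, 48 h after 4 conditions. Cells were left untreated (control), or were treated with NaB, with Cur+Pip, or with NaB, Cur and Pip together (combination). NaB is sodium pentaborate pentahydrate, Cur is curcumin and Pip is piperine. HepG2 received 2500 µM NaB and Hep3B 1700 µM, and both lines received 30 µM Cur and 6 µM Pip. There was 1 library per condition, 8 in all, so the values within a line have no replicate.

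In translation initiation, eIF2 carries the initiator tRNA to the small ribosomal subunit, eIF1 and its relatives help to select the start codon, and eIF3 holds the complex together. The eIF4F factors, which are the cap-binding protein eIF4E, the helicase eIF4A and the scaffold eIF4G, bring this complex to the capped mRNA, while the 4E-BP proteins hold eIF4E back. Under stress, the kinases HRI, PKR, PERK and GCN2 phosphorylate eIF2 on its alpha subunit, which blocks its exchange factor eIF2B and lowers bulk translation while transcripts such as ATF4 are translated more. The measurements here are RNA levels, and neither protein nor phosphorylation was measured.

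Hepatocyte markers separated the lines by label. Of 20 hepatocyte marker genes, 16 to 20 reached an FPKM of 1 in each HepG2 library, with a summed FPKM of 7689 to 17029. In the libraries labelled Hep3B, 1 to 3 of the 20 did, with a summed FPKM of 7.01 to 18.1, and APOA2, APOC3 and TTR were listed at 0 in all 4, so these libraries are called by their label throughout. HepG2 control itself listed ALB, AFP, APOA2 and APOC3 at 0. PTPRC, CD3E and COL3A1, markers of blood cells and fibroblasts, were at 0 in all 4 HepG2 libraries. The assemblies differed too: transcripts with a single exon made up 16.4% in HepG2 control, 22.7% after NaB, 34.1% after Cur+Pip and 32.2% after the combination, and 14.7, 19.1, 22.4 and 28.4% in the same order under the Hep3B label. The part of these differences in the results was not tested. Fewer cells with a transcript and less of it per cell cannot be told apart in such bulk RNA. The estimated depth was 25.6 to 35.7 M fragments per library.

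The initiation factor genes were highly expressed in each library. Levels are summed FPKM, which scales fragments by transcript length and library size, added over the assembled transcripts of a gene. Of the 53 genes, 43 were listed in all 8 libraries and 6 in some, and 4 had no assigned transcript in any. The median level of the listed members was 59.4 to 90.4 FPKM per library, against 10.4 to 12.4 FPKM for all listed protein-coding genes. The highest members were EIF5A, EIF1 and EIF4A1, and the lowest that were listed in all 8 libraries included EIF2S3B, EIF5A2 and EIF5AL1. EIF2S3B and EIF5AL1 are near-identical in sequence to the transcripts of EIF2S3 and EIF5A, so reads may be shared between the copies and their levels are uncertain. EIF3C and EIF3CL, which are near-identical to each other, had no assigned transcript, nor did the germline cap-binding gene EIF4E1B.

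**Figure D1:**
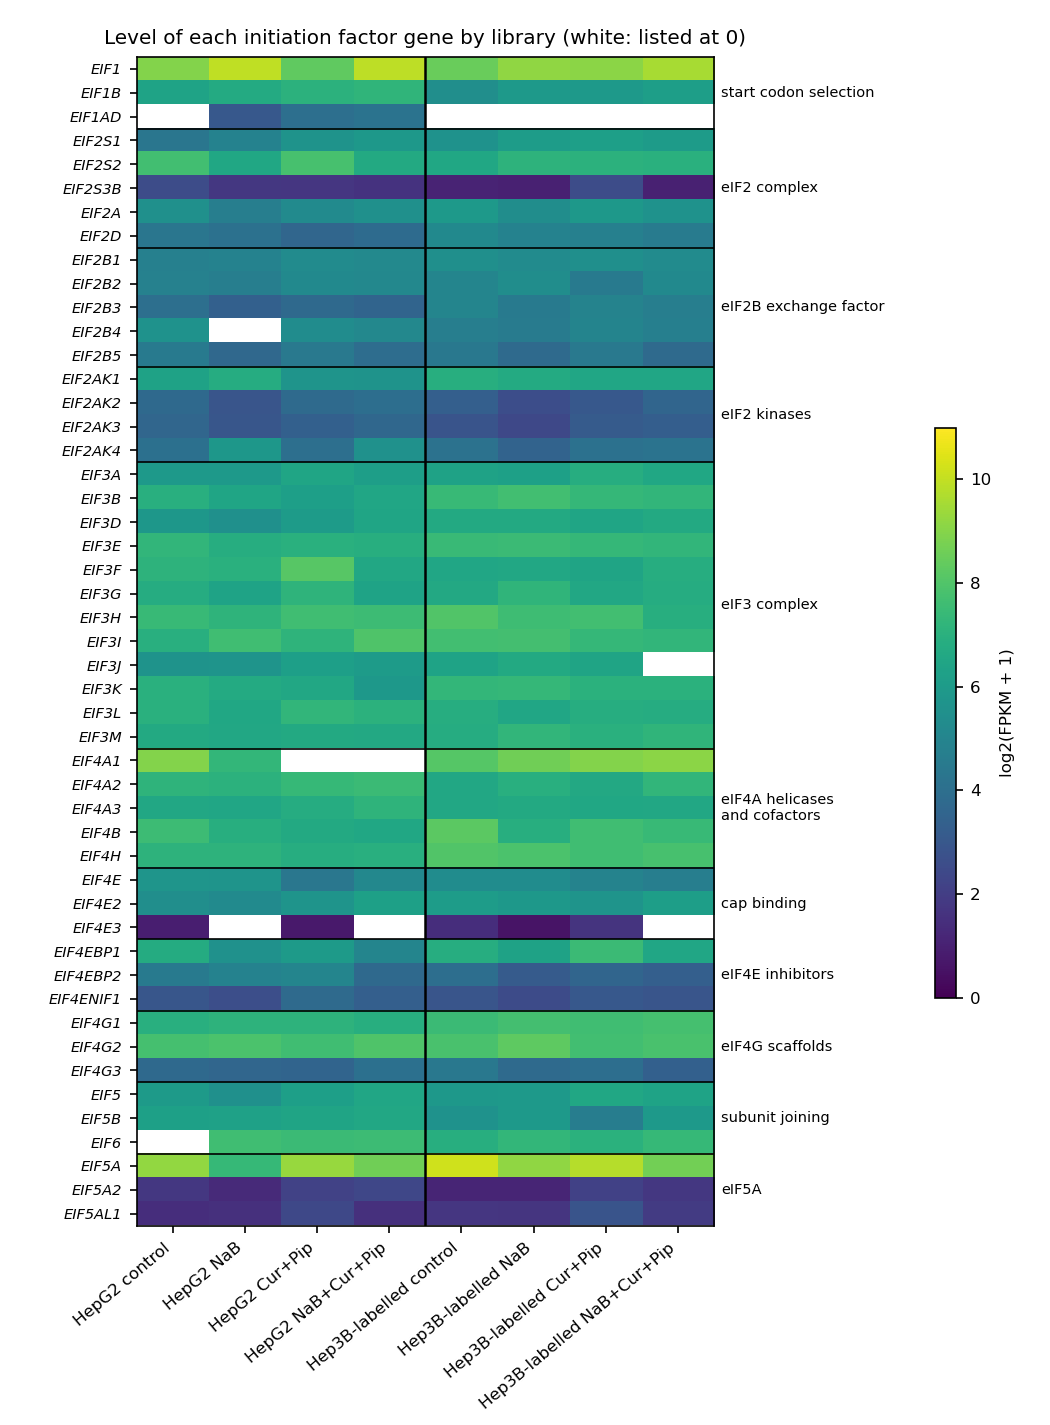
Level of each of the 49 initiation factor genes that were listed in at least 1 library (rows, grouped by role) in each of the 8 libraries (columns). Colour gives log2(FPKM + 1) and white cells are genes listed at 0. EIF1, EIF5A and EIF4A1 are the brightest rows, and the white cells of EIF4A1, EIF6, EIF2B4, EIF3J, EIF4E3 and EIF1AD mark libraries with no transcript assigned to them.

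The fold threshold was an absolute log2 fold change over 1.5 on the log2(FPKM + 1) scale. The share of members beyond it was above that of all genes after NaB in HepG2 (12.5%) and below it in the other comparisons. For NaB in HepG2, 6 of 48 members passed (9.75% of all genes did), with 3 higher (4.70% of all genes) and 3 lower (5.06%). Cur+Pip in HepG2 gave 3 of 48 (19.2% of all genes), with 2 higher (8.98%) and 1 lower (10.2%). The combination in HepG2 gave 5 of 48 (19.5%), with 3 higher (8.02%) and 2 lower (11.5%). For the Hep3B label the count was 0 of 48 after NaB, where 12% of all genes passed, 4.97% higher and 7.01% lower. It was 0 of 48 after Cur+Pip too, where 10.4% passed, 6.44% higher and 3.95% lower. After the combination it was 2 of 48, both lower, where 15% passed, 6.79% higher and 8.17% lower. The median log2 fold change of the members was -0.15, 0.15 and 0.09 in HepG2 and -0.03, -0.03 and -0.01 under the Hep3B label, where the median over all genes lay between -0.12 and 0. Median-of-ratios scaling moved the all-gene median after NaB under the Hep3B label from -0.12 to 0 and the member median there from -0.03 to 0.09. A gene entered these counts if it reached 1 FPKM in any library of the line, which leaves 48 members in each line. With 1 library per condition no test was possible within a line, and the shares are set side by side as a description.

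Several of these counts rested on genes listed at 0 in a single library. Among members listed in all 4 libraries of a line, 2, 0 and 2 passed in HepG2 (3.20, 12.3 and 11.8% of all such genes) and 0, 0 and 1 under the Hep3B label (5.58, 2.98 and 6.81%). For this reason a second level was computed, called the shared-base depth and given in FPKM. It averages the FPKM of the transcripts present over the annotated bases of a gene that were covered in all 8 libraries. Each transcript counts with a single FPKM value for its whole length. Transcript length, and parts that run past the gene, thus still bear on this level. The shared-base depth could be had for 46 members, over 470 to 7291 bases each. On that scale 3, 2 and 4 members passed in HepG2 (2.98, 10.1 and 10.6% of all genes) and 0, 0 and 1 under the Hep3B label (4.94, 2.39 and 6.02%). Another level, the apportioned depth, is the same average over the annotated exonic bases of a gene that were covered in any of the 8 libraries. Each transcript is counted in every gene it covers on its strand. Among members tested and listed in both libraries, the direction of the fold change turned in 13 of 270 values on shared-base depth, 46 of 277 with apportioned depth and 37 of 277 with the largest transcript of a gene in place of the sum.

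Of the 43 members listed in all 8 libraries, 28 had an absolute log2 fold change under 1 in all 6 comparisons, 6 stayed under 0.5, and 4 passed 1.5 in any. These are 65.1, 13.95 and 9.30% of them, against 47.9, 8.71 and 22.6% of the 8557 genes listed in all 8 libraries. These 4 were EIF2AK4, EIF2S1, EIF4EBP1 and EIF5A. EIF1B and EIF2S1 were above control in all 6 comparisons, and EIF2B3, EIF2D and EIF4B were below it in all 6. The share of all genes with the same direction in all 6 was not counted, so this is a description only. With apportioned depth EIF2S1 was below control in all 6 instead. The treatments of a line share its control, so the 3 comparisons of a line are not independent of each other.

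**Figure D2:**
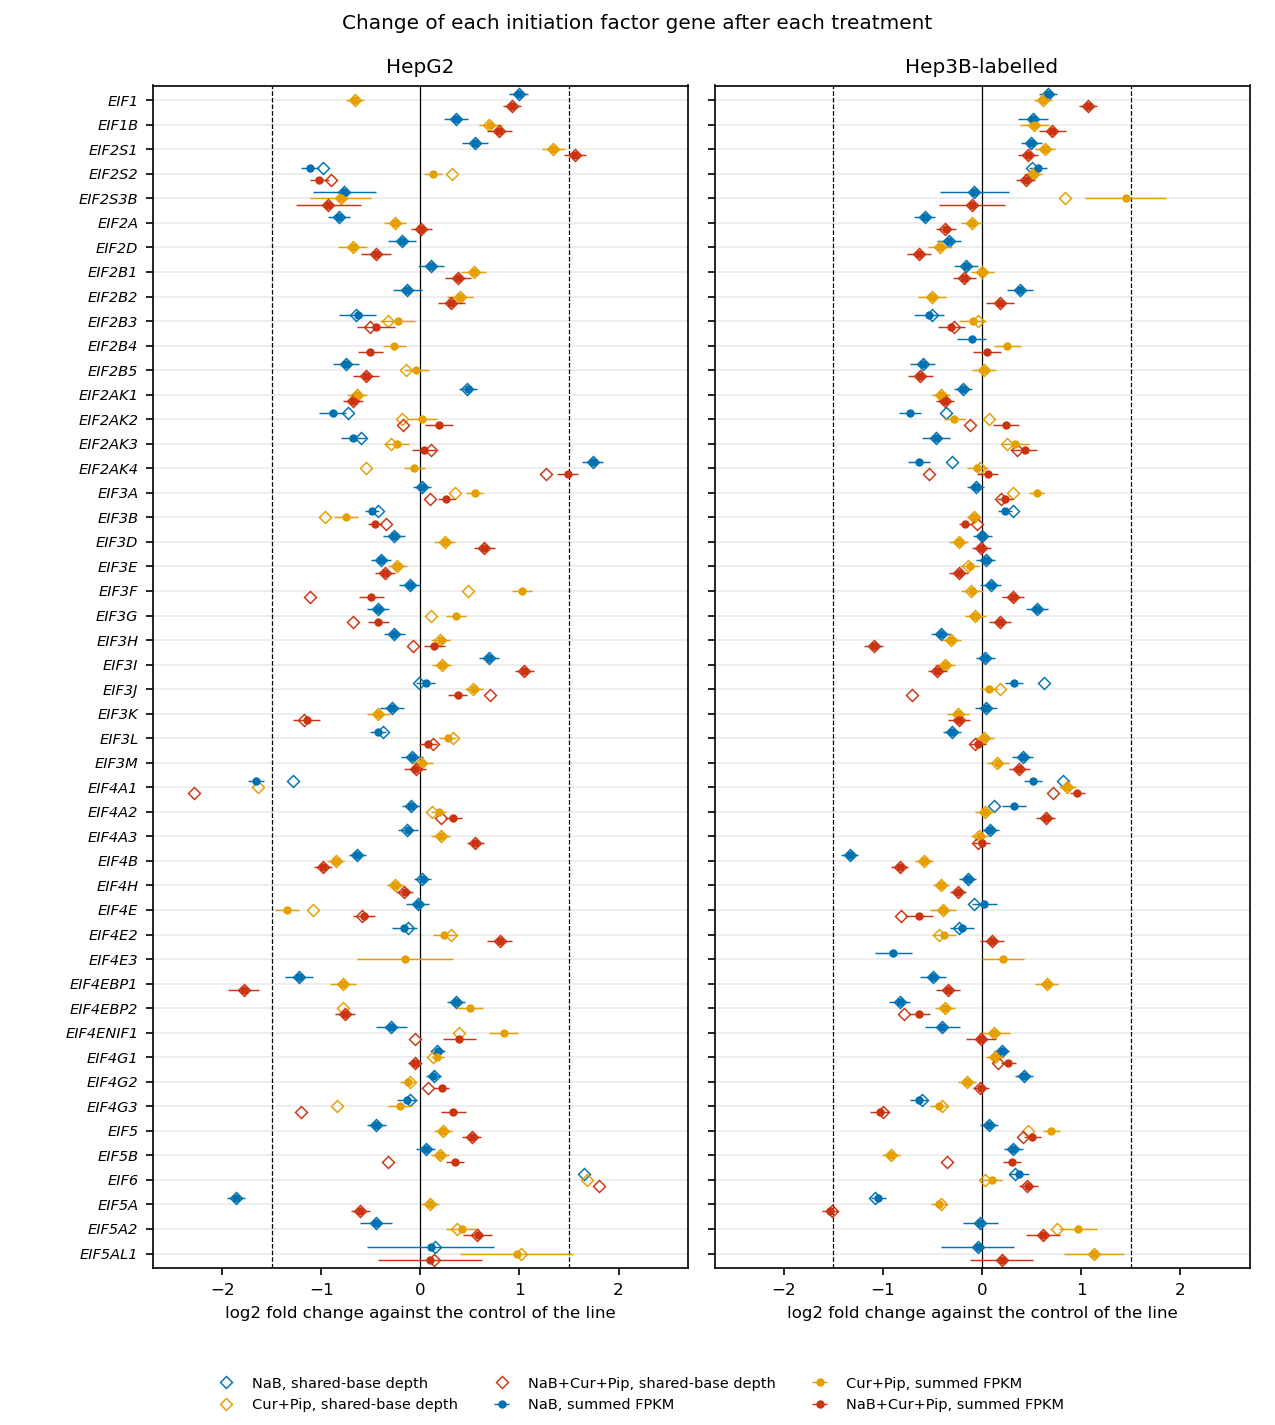
Log2 fold change of each member against the control of its line (HepG2 left, libraries labelled Hep3B right). Filled circles are summed FPKM with the interval of the Cufflinks estimates, shown where the gene was listed in both libraries. Open diamonds are shared-base depth, and dashed lines mark the threshold of 1.5. Most symbols lie between the dashed lines, and those outside in HepG2 belong to EIF2AK4, EIF2S1, EIF4EBP1, EIF5A, EIF4A1 and EIF6.

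The alpha subunit of eIF2 is where the eIF2 kinases act. EIF2S1, which encodes it, lies at chr14:67360328-67386516 on the plus strand of GRCh38 and has 8 exons. The codon of the serine that the kinases phosphorylate, residue 51 without the initiator methionine, was inside an assembled transcript in 8 of 8 libraries. It is shown as the site that links the kinases to this gene, from chr14:67364906-67364938, 5′ to 3′ on the plus strand with the serine codon in capitals.
EIF2S1 serine codon: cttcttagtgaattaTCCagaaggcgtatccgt

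On summed FPKM, EIF2S1 had the higher level in the treated libraries of both lines. Its FPKM in HepG2 was 19.0 in control, 28.2 after NaB, 49.6 after Cur+Pip and 57.7 after the combination. The Hep3B-labelled values were 47.2, 67.2, 74.1 and 65.6 in the same order. The control was the lowest library of each line, and the largest difference was that of the combination in HepG2, with a log2 fold change of 1.56 (1.44 to 1.67, the interval of the 2 Cufflinks estimates, which covers no spread between cultures).

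The assembled 3′ end of EIF2S1 differed between control and treated libraries. In both controls the transcript was 4491 and 4509 nt long and ended 3168 and 3074 bases past the stop codon. In the 6 treated libraries it was 1331 to 1631 nt long, and its end lay between 29 bases before and 246 bases after the last base of the stop codon. The stop codon, in capitals, is shown with its flanks because the treated transcripts end around it, from chr14:67383426-67383455 on the plus strand.
EIF2S1 stop codon: aaagctgaagatTAActttgtgggaaacag

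FPKM divides by transcript length, so the shorter transcripts bear on the fold change, also on shared-base depth, which uses the same FPKM. The product of FPKM and length in kilobases, which is the library-scaled fragments given to the transcript, was 85.2 in HepG2 control, 38.3 after NaB, 70.9 after Cur+Pip and 94.2 after the combination. For the Hep3B label it was 213, 89.4, 101 and 89.9. By this quantity the treated libraries were below their control in 5 of 6 comparisons. With apportioned depth the direction turned in all 6 comparisons, with log2 fold changes of -1.22, -0.48 and -0.04 in HepG2 and -1.42, -1.28 and -1.44 under the Hep3B label.

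EIF2S2, the beta subunit, had an FPKM of 206 in HepG2 control, 94.3 after NaB, 225 after Cur+Pip and 101 after the combination, and 93.6, 139, 134 and 127 under the Hep3B label. It was low in both HepG2 libraries with NaB and above control in the 3 treated Hep3B-labelled libraries. With apportioned depth the values under the Hep3B label were -0.05, 0.34 and -0.14, so the direction turned after NaB and after the combination. EIF2S3B, whose level is uncertain, ranged from 0.996 to 4.89 FPKM with log2 fold changes between -0.93 and 1.45. EIF2A and EIF2D, which can deliver tRNA without eIF2, ranged from 24.95 to 61.1 FPKM and from 11.3 to 35.9 FPKM.

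Of the kinase genes, EIF2AK4 had the widest differences. EIF2AK4 encodes GCN2, which senses uncharged tRNA during amino acid shortage, and lies at chr15:39934115-40035591 on the plus strand. Its summed FPKM in HepG2 was 15.7 in control, 54.7 after NaB, 15.004 after Cur+Pip and 45.8 after the combination. In the Hep3B-labelled libraries the summed FPKM was 16.6, 10.3, 16.0 and 17.3. The log2 fold change was 1.74 (1.63 to 1.85) after NaB and 1.49 (1.38 to 1.59) after the combination in HepG2, and -0.64 and 0.06 under the Hep3B label. Both HepG2 libraries with NaB were above the other 6 libraries.

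This higher level in HepG2 belonged to the second part of the gene. The main annotated transcript has 39 exons. Over exons 1 to 21 the mean depth was 15.7 FPKM in HepG2 control, 0 after NaB, 10.1 after Cur+Pip and 7.27 after the combination. Over exons 22 to 39 it was 13.5, 41.9, 10.5 and 31.2 FPKM in the same libraries. The NaB library held a single EIF2AK4 transcript, with 18 exons and 54.7 FPKM, and none that covered the first exons. The combination library held 2 such short transcripts, with a summed FPKM of 36.9, beside a full-length one of 3.12 FPKM. The Cur+Pip library held 1 of 3.76 FPKM beside a full-length one of 7.02 FPKM. From exon 12 to exon 13 the depth fell from 8.89 to 3.12 FPKM in the combination library and from 11.2 to 7.02 FPKM after Cur+Pip. The further depth up to exon 12 also enters the summed FPKM.

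No short transcript of this kind was assembled in HepG2 control or in the 4 libraries labelled Hep3B. Under the Hep3B label exons 1 to 21 had 10.2 to 15.5 FPKM. Exons 22 to 39 had 10.03, 8.02, 9.94 and 6.81 FPKM in control, NaB, Cur+Pip and combination. In the same order, exon 12 was at 16.6, 10.3, 16.0 and 17.3 FPKM and exon 13 at 12.95, 10.3, 12.7 and 8.88 FPKM. With apportioned depth the log2 fold change of EIF2AK4 in HepG2 was 0.34 after NaB and 0.39 after the combination. The short transcripts began in intron 21, at 40002540 after NaB, 40002539 after Cur+Pip and 40002511 after the combination, 173 bases before exon 22 in the NaB library. An annotated shorter EIF2AK4 transcript begins at 40002391 in the same intron. The genome around this start is shown because the added depth begins there, from chr15:40002290-40002589 of GRCh38 on the plus strand, with the first 50 bases of the transcript of the NaB library in capitals.
EIF2AK4 intron 21: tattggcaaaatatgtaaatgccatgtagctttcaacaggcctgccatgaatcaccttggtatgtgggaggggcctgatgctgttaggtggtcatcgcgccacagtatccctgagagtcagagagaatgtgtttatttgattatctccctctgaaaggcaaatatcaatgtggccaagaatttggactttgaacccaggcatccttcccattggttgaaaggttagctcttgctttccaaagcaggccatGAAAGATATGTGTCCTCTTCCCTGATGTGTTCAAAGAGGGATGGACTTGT
The start of an assembled transcript is where its read coverage begins and was not measured as a capped end.

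**Figure D3:**
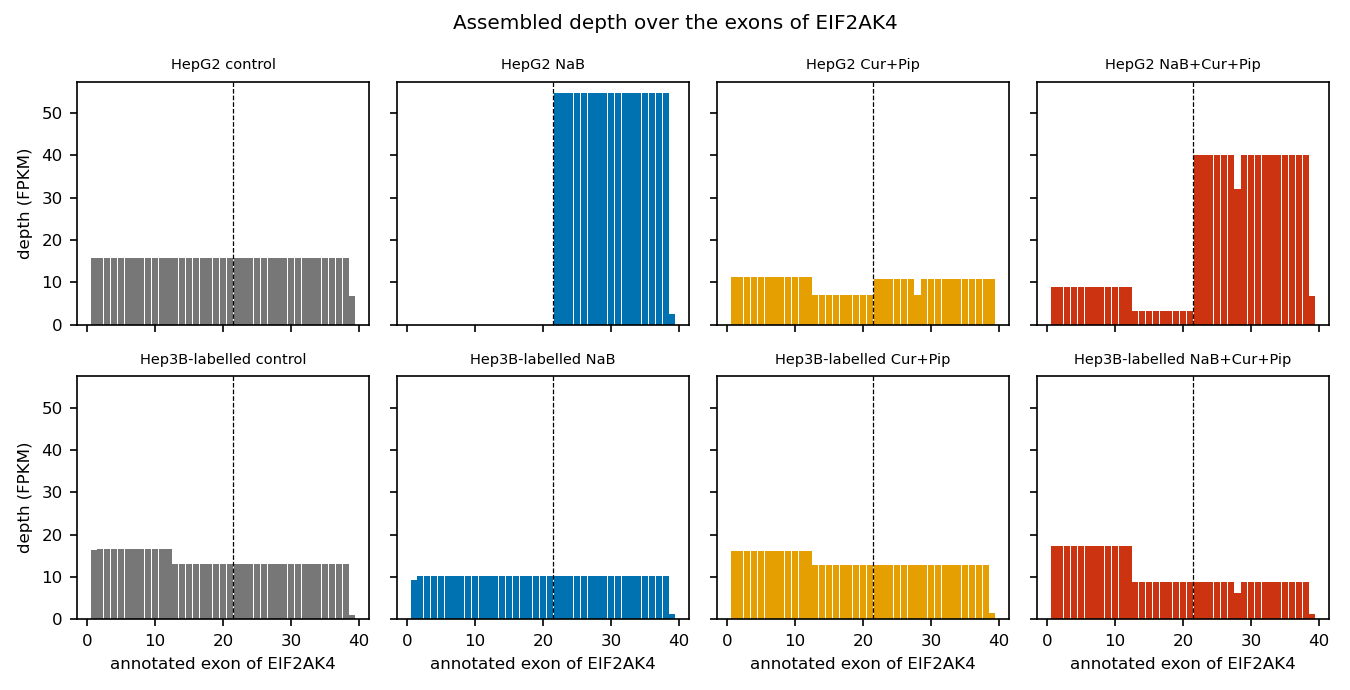
Depth of the assembled transcripts (FPKM, bars) over each of the 39 annotated exons of EIF2AK4 in order, with 1 panel per library and a dashed line between exons 21 and 22. In the NaB and combination libraries of HepG2 the depth is higher from exon 22 on (mean 41.9 and 31.2 FPKM) than before it (0 and 7.27 FPKM). In the other 6 libraries the means over exons 1 to 21 and over exons 22 to 39 lie within 6.81 to 15.7 FPKM, while single exons lie outside that range.

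None of the other eIF2 kinase genes passed the fold threshold. EIF2AK1 encodes HRI, which responds to heme shortage and mitochondrial stress, and was the highest of them in every library. Its FPKM was 80.3, 112, 51.2 and 49.8 in HepG2 control, NaB, Cur+Pip and combination, and 119, 104, 88.8 and 91.4 under the Hep3B label. It was below control in 5 of 6 comparisons and above it after NaB in HepG2.

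EIF2AK2 encodes PKR, the sensor of double-stranded RNA. Its FPKM was 12.7, 6.42, 12.9 and 14.6 in the HepG2 libraries and 9.05, 5.07, 7.26 and 10.9 under the Hep3B label. EIF2AK3 encodes PERK, the sensor of unfolded protein in the endoplasmic reticulum, with 11.3, 6.70, 9.42 and 11.6 FPKM in HepG2 and 6.16, 4.20, 8.03 and 8.66 FPKM under the Hep3B label. For both genes the NaB library was the lowest of each line, with log2 fold changes of -0.89 and -0.68 in HepG2 and -0.73 and -0.46 under the Hep3B label. The value of EIF2AK2 after NaB in HepG2 turned to 0.15 with apportioned depth.

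The exchange factor eIF2B, which the phosphorylated eIF2 blocks, has 5 subunit genes. EIF2B3, the gamma subunit, was at 14.99, 9.30, 12.6 and 10.7 FPKM in HepG2 and at 31.2, 21.2, 29.1 and 24.9 FPKM under the Hep3B label. Every Hep3B-labelled library was above every HepG2 library, and the gene is given in full because of that line difference. In each line control was highest and NaB lowest.

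EIF2B4, the delta subunit, was at 48.4, 0, 40.2 and 33.8 FPKM in HepG2 and at 24.8, 22.98, 29.8 and 25.6 FPKM under the Hep3B label. No transcript overlapped it on its strand in the NaB library of HepG2, so it is listed at 0 there and no fold is given. EIF2B5, the catalytic epsilon subunit, was at 12.3 to 21.3 FPKM in HepG2 and 12.8 to 20.6 FPKM under the Hep3B label. In both lines its NaB and combination libraries were below control and Cur+Pip.

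Among the factors that act on start codon choice, EIF1B was above control in all 6 comparisons. Its FPKM was 82.3, 106, 135 and 144 in HepG2 control, NaB, Cur+Pip and combination, and 42.3, 60.9, 61.3 and 69.8 under the Hep3B label. Log2 fold changes lay between 0.36 and 0.80, and the combination library was the highest of each line. EIF1, its close relative, was at 501, 996, 317 and 949 FPKM in HepG2 and at 358, 569, 548 and 752 FPKM under the Hep3B label. Cur+Pip in HepG2 was the library below control, with a log2 fold change of -0.66 that was 0.97 with apportioned depth.

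EIF1AD, a gene of the eIF1A-like domain family, was at 0, 7.14, 15.4 and 17.1 FPKM in HepG2 and listed at 0 in the 4 libraries labelled Hep3B. No transcript overlapped it in HepG2 control, so no fold is given.

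None of the genes of the scaffold complex eIF3 passed the fold threshold where it was listed in both libraries. Its 12 measured genes had a summed FPKM of 1327, 1194, 1528 and 1330 in HepG2 and 1637, 1702, 1523 and 1376 under the Hep3B label. The median log2 fold change over these genes was -0.26, 0.23 and 0.01 in HepG2, and 0.04, -0.09 and -0.04 under the Hep3B label, where EIF3J, listed at 0 after the combination, is left out of the last value. The widest single values were those of EIF3K and EIF3I after the combination in HepG2, with log2 fold changes of -1.15 and 1.05, of EIF3H after the combination under the Hep3B label (-1.09), and of EIF3F after Cur+Pip in HepG2 (1.03, and 0.48 on shared-base depth).

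EIF3J, a loosely bound eIF3 subunit, was at 49.1, 51.0, 71.9 and 64.1 FPKM in HepG2 and at 81.1, 102, 85.2 and 0 FPKM under the Hep3B label. In the combination library listed at 0, a single transcript of 36.3 FPKM covered EIF3J, but 35.4% of its bases lay in the gene, under the 50% needed for assignment. On shared-base depth, which uses the FPKM of that transcript, the log2 fold change there was -0.71.

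The helicase gene EIF4A1 differed in direction between the lines. It unwinds the mRNA leader as part of eIF4F, and its summed FPKM was 490.4 in HepG2 control, 154 after NaB and 0 after Cur+Pip and after the combination. With the Hep3B label it was 277, 395, 504 and 540.4. The Cur+Pip and combination libraries of HepG2 held EIF4A1 inside transcripts that ran on into the neighbouring genes CD68 and MPDU1. In the transcript with the longest overlap, 26.7 and 23.6% of the bases lay in EIF4A1. CD68, also a blood cell marker, was at 0 in HepG2 and at 12.4 to 45.5 FPKM in 3 libraries labelled Hep3B. The shared-base depth of EIF4A1 was 378, 154, 120.3 and 76.5 FPKM in HepG2 and 277, 489, 504 and 454 FPKM under the Hep3B label. On this scale all 3 treated HepG2 libraries were below control (log2 fold changes of -1.29, -1.64 and -2.29) and all 3 treated Hep3B-labelled libraries above it (0.82, 0.86 and 0.71). The values after Cur+Pip and the combination in HepG2 use the FPKM of the transcripts that ran on past EIF4A1. The part of this in the differences was not tested.

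EIF4A2, the second cytoplasmic helicase, was flatter. Its FPKM was 143, 134, 162 and 180.4 in HepG2 and 96.6, 121, 98.4 and 151 under the Hep3B label, with the combination library highest in each line. The direction of its fold changes turned in 5 of 6 comparisons with the largest transcript and in 1 with apportioned depth.

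EIF4B, a cofactor of the helicase, was below control in all 6 comparisons. Its FPKM was 186, 119, 102 and 93.7 in HepG2 and 299, 118, 199 and 167 under the Hep3B label, with log2 fold changes between -1.34 and -0.59.

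The inhibitor gene EIF4EBP1 was lower than control after each treatment in HepG2. EIF4EBP1 encodes 4E-BP1, which binds eIF4E when mTORC1 is inactive. Its FPKM was 109 in HepG2 control, 45.9 after NaB, 62.7 after Cur+Pip and 30.8 after the combination. The Hep3B-labelled values were 114, 80.5, 179 and 89.4. The log2 fold change of the combination in HepG2 was -1.79 (-1.95 to -1.63). Each HepG2 library held 1 transcript of this gene that held 94.9 to 100% of its annotated bases covered in any library. Both other levels reuse the FPKM of that transcript. The values of -1.79 on shared-base depth and -1.80 with apportioned depth are therefore no separate check. In the libraries labelled Hep3B the log2 fold changes were -0.49, 0.65 and -0.34, and Cur+Pip was the highest of the 8 libraries.

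EIF4EBP2, a related inhibitor, was at 21.8, 28.3, 31.2 and 12.4 FPKM in HepG2 and at 14.6, 7.80, 11.04 and 9.09 FPKM under the Hep3B label. The value after Cur+Pip in HepG2 was 12.2 FPKM on shared-base depth, which turns its difference from control from 0.50 to -0.78 on the log2 scale. EIF4EBP3 had no assigned transcript, since transcripts that reached it in 6 of 8 libraries ran through the neighbouring ANKHD1 with 3.24 to 6.58% of their bases in EIF4EBP3.

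EIF4E, which encodes the cap-binding protein, was at 51.7, 50.6, 19.8 and 34.5 FPKM in HepG2 and at 39.3, 39.9, 29.6 and 24.95 FPKM under the Hep3B label. In both lines the Cur+Pip and combination libraries were below control and NaB. The largest difference was that of Cur+Pip in HepG2, with a log2 fold change of -1.34 (-1.46 to -1.22) and -1.08 on shared-base depth. With apportioned depth that value was -0.55, and the largest was that of the combination under the Hep3B label, at -1.09.

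The ratio of the summed 4E-BP level to that of EIF4E had a like order of libraries in both lines for the single treatments. In HepG2 it was 2.52 in control, 1.46 after NaB, 4.76 after Cur+Pip and 1.25 after the combination. For the Hep3B label it was 3.26, 2.21, 6.41 and 3.95. NaB was below control and Cur+Pip above it in each line, while the combination was the lowest HepG2 library and above control under the Hep3B label. With apportioned depth the ratio after Cur+Pip in HepG2 was 3.58 and that of control 4.28, so that Cur+Pip lay below control there. With the largest transcript the NaB ratio under the Hep3B label was 3.47, above its control, and with apportioned depth the combination there, at 10.8, was above Cur+Pip, at 10.4.

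**Figure D4:**
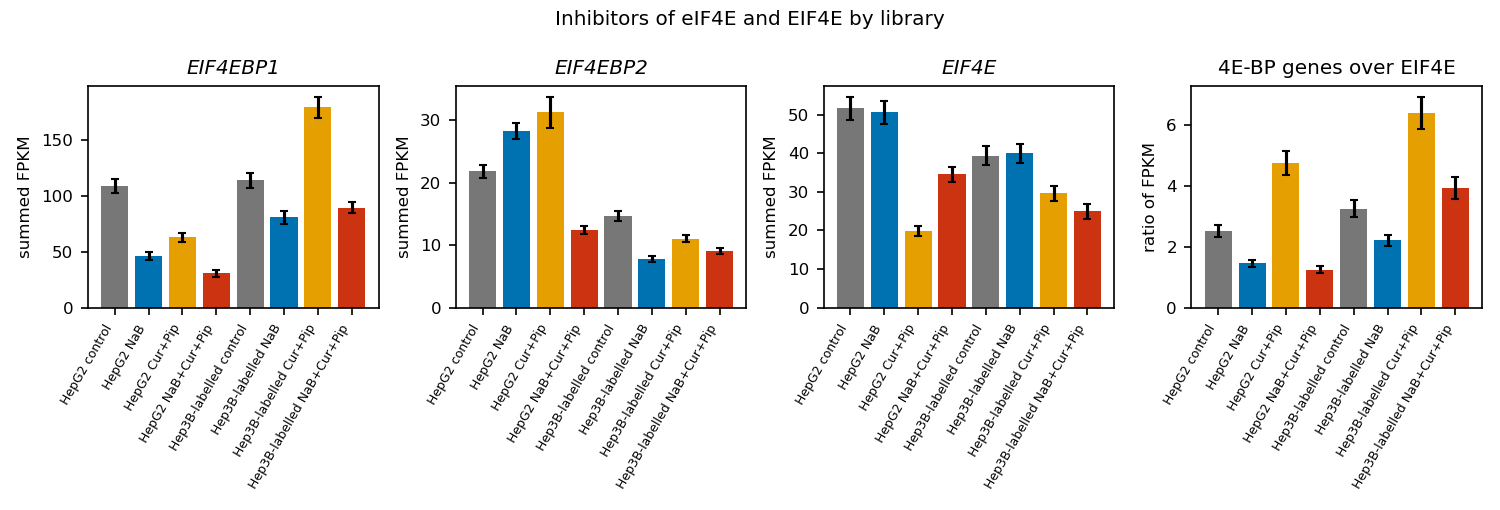
Summed FPKM of EIF4EBP1, EIF4EBP2 and EIF4E and the ratio of the summed 4E-BP level to that of EIF4E (bars) in each of the 8 libraries. Error bars are built from the Cufflinks intervals of 1 library and hold no spread between cultures. EIF4EBP1 is lowest after the combination in HepG2 (30.8 FPKM), and the ratio is highest after Cur+Pip in each line (4.76 and 6.41).

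EIF4G1 encodes the main scaffold. Its FPKM was 122, 138, 137 and 117 in HepG2 and 181, 208, 199 and 218 under the Hep3B label, with log2 fold changes between -0.06 and 0.27. With its largest transcript they lay between -0.92 and 0.49. EIF4G2, which supports initiation without eIF4E, ranged from 197 to 306 FPKM. EIF4G3 was the low scaffold, at 9.46 to 20.4 FPKM.

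EIF6 keeps the ribosomal subunits apart until the large one is ready to join. Its summed FPKM was 0, 196, 182 and 185 in HepG2 and 119.6, 155, 128 and 166 under the Hep3B label. HepG2 control held EIF6 in 2 transcripts that ran on past the gene, and the longest overlap was 32.0% of its transcript. On shared-base depth EIF6 was at 55.2, 175, 179 and 195 FPKM in HepG2 and at 112, 142, 115 and 154 FPKM under the Hep3B label. Log2 fold changes on that scale were 1.65, 1.68 and 1.80 in HepG2 and 0.33, 0.03 and 0.45 under the Hep3B label. HepG2 control was the lowest of the 8 libraries on that scale. Its value uses the FPKM of the 2 transcripts that ran on past the gene, and the part of this in the differences was not tested.

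EIF5A, which helps ribosomes past runs of proline and needs hypusine to work, was lower in NaB libraries of both lines. Its FPKM was 592 in HepG2 control, 162 after NaB, 634 after Cur+Pip and 388 after the combination. In the Hep3B-labelled libraries the values were 1183, 572, 874 and 408. The log2 fold changes were -1.86 (-1.96 to -1.77), 0.10 and -0.61 in HepG2, and -1.05, -0.44 and -1.53 (-1.62 to -1.45) under the Hep3B label. In each line both libraries with NaB were below both libraries without it. With apportioned depth the difference after NaB in HepG2 was -1.40 and that of the combination under the Hep3B label -1.30, inside the threshold.

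The limma fit on log2(FPKM + 1) over all 8 libraries, with cell line and treatment as terms, asked which members differed between the lines or changed in both. It has 3 residual degrees of freedom and counts any unlike response of the lines as residual spread, and NaB was given at unlike doses. For the difference between the lines, 4 of 49 members passed an adjusted p of 0.05 (24.7% of all genes did), and 12 an unadjusted p of 0.05 (38.7%). EIF2B3 was higher in the libraries labelled Hep3B by 1.10 on the log2 scale (95% interval 0.59 to 1.61, adjusted p = 0.018), as were EIF2D by 0.88 (adjusted p = 0.039) and EIF4H, a cofactor of the helicase, by 0.82 (adjusted p = 0.041). EIF1B was lower by a log2 difference of -0.97 (-1.496 to -0.45, adjusted p = 0.027). For EIF2B3, EIF2D, EIF4H and EIF1B, the groups of 4 libraries did not overlap. These genes were picked by the fit on the same values, so this adds no separate support. The share of all genes without overlap was not counted. Members that did not pass on summed FPKM also showed no overlap. EIF3B was at 72.8 to 124 FPKM in HepG2 and 152 to 201 FPKM under the Hep3B label. EIF4G1 was at 117 to 138 FPKM and 181 to 218 FPKM. With apportioned depth EIF4H did not pass (0.53, adjusted p = 0.19).

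Among genes listed in all 8 libraries, 10 of 43 members passed (33.4% of such genes). On shared-base depth 10 of 46 members passed for the line (36.6% of all genes), which adds EIF2S1, EIF3B, EIF4EBP1, EIF4G1 and EIF4G3 as higher and EIF5B as lower in the libraries labelled Hep3B. Leaving out any 1 of the 8 libraries left 0 or 1 member past the threshold on summed FPKM. The lines cannot be told apart from what else differs between the 2 sets of libraries, and hepatocyte markers were near 0 in one of them.

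No member passed for a change shared by both lines. The limma count was 0 of 49 after NaB (0 of 15447 genes, 0.0%), 0 after Cur+Pip (0.0259% of all genes) and 0 after the combination (0.0712%). At an unadjusted p under 0.05, 4, 1 and 2 members passed, where 4.70, 5.93 and 10.7% of all genes did. EIF5A after NaB had a log2 change of -1.45 (95% interval -2.71 to -0.20, adjusted p = 0.90). EIF4B after NaB had -0.99 (-1.91 to -0.06, adjusted p = 0.90). Both genes were lower in 2 of 2 lines. The fit counts unlike responses as spread and so favours such genes, and the shared direction adds no separate support. Over all genes the fit detected only large changes. In simulated data of the NaB comparison it found 0 of 200 genes changed by 1.5, 116 changed by 3 and 188 changed by 6 on the log2 scale. False calls were 0, 8 and 9. The changed genes were drawn from all genes, so the change that could be detected in the members was not tested.

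**Figure D5:**
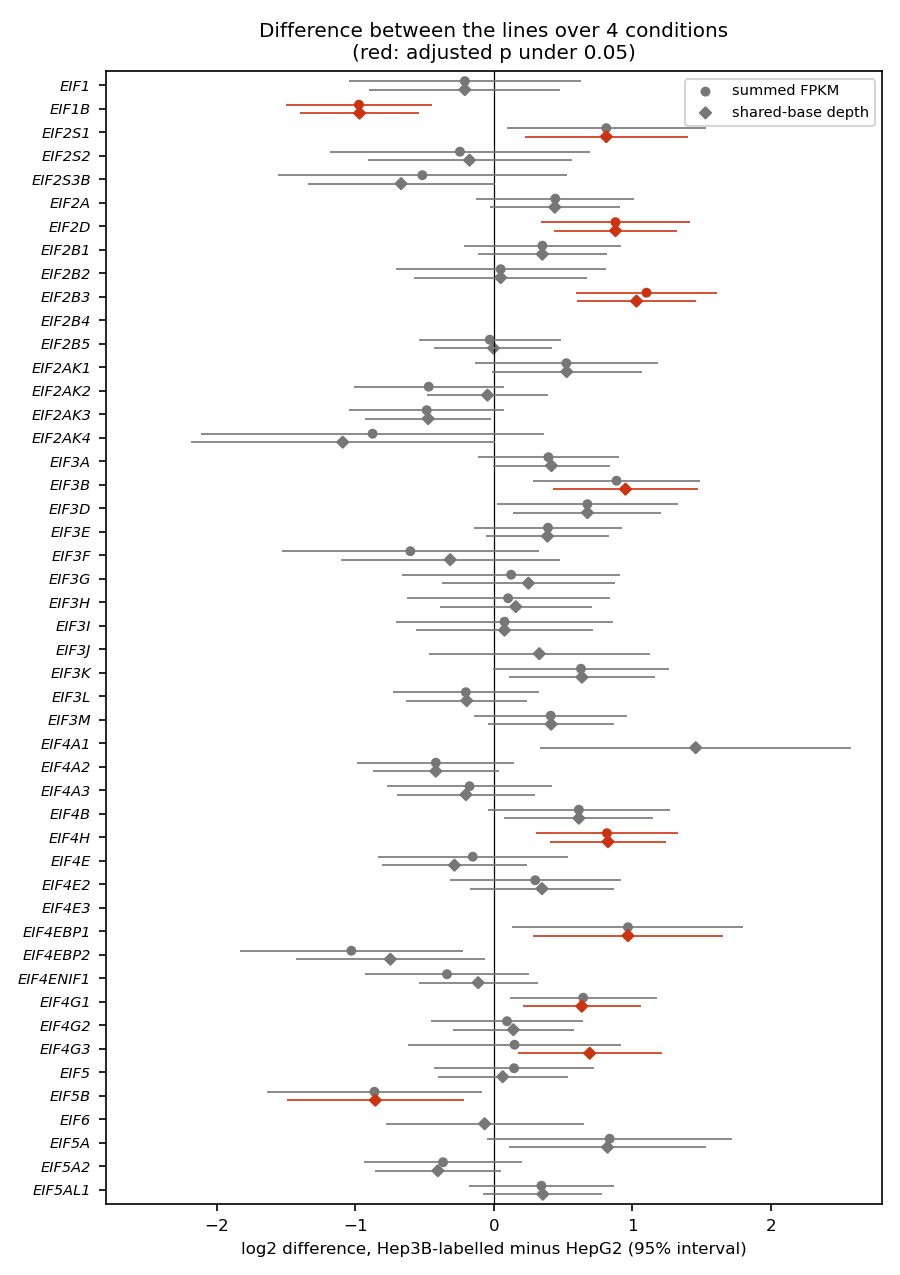
Log2 difference between the libraries labelled Hep3B and HepG2 over the 4 conditions for each member (points) with its 95% limma interval (lines). Circles are summed FPKM of members listed in all 8 libraries, diamonds are shared-base depth, and red marks an adjusted p under 0.05. EIF2B3, EIF2D and EIF4H lie to the right and EIF1B to the left on both scales.

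A list of 20 genes of the integrated stress response was described beside the eIF2 kinases. Whether their levels follow from the kinases was not tested. Of 19 measured genes in HepG2, 1 passed the fold threshold as higher and 4 as lower after NaB. Cur+Pip gave 8 higher and 1 lower, and the combination gave 5 and 4. Of all genes in HepG2, 4.70, 8.98 and 8.02% passed as higher and 5.06, 10.2 and 11.5% as lower. Of 20 genes under the Hep3B label, 1 passed as higher and 3 as lower after NaB, 4 and 1 after Cur+Pip, and 7 and 2 after the combination, where 4.97, 6.44 and 6.79% of all genes passed as higher and 7.01, 3.95 and 8.17% as lower. The list's median log2 fold change was -0.61, 1.10 and 0.31 in HepG2, where that of all genes was 0, and -0.20, 0.75 and 0.97 under the Hep3B label, where that of all genes was -0.12, 0 and -0.05. Among genes listed in both libraries of a comparison, the counts were 1 higher and 2 lower, 7 and 1, and 4 and 2 in HepG2, and 1 and 2, 3 and 0, and 6 and 1 under the Hep3B label.

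ATF3, a stress-induced transcription factor, had the highest log2 fold change of the combination in HepG2 among genes listed in both libraries, at 55.9 FPKM against 5.19 in control, a log2 fold change of 3.20. ASNS, the asparagine synthetase, had the lowest, at 8.37 against 31.7 FPKM (-1.80). DDIT3, which encodes the factor CHOP, had the highest under the Hep3B label, at 199.8 against 8.46 FPKM (4.41). DDIT3 was listed at 0 in the NaB library of each line, in HepG2 control and after Cur+Pip under the Hep3B label. It had no shared-base depth, so its fold change could not be compared on that scale. ATF4, named after its values were seen as the transcript whose translation the kinases raise, was at 209, 447, 269 and 384 FPKM in HepG2. With the Hep3B label ATF4 was at 258, 237, 429 and 0 FPKM, and on shared-base depth its log2 fold change in the library listed at 0 was -0.39.

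Of 15 regulators of eIF4E and mTORC1, 0, 2 and 3 genes passed the fold threshold after NaB, Cur+Pip and the combination in HepG2 (9.75, 19.2 and 19.5% of all genes) and 1, 0 and 1 under the Hep3B label (12, 10.4 and 15% of all genes). The list median was 0.20, 0.26 and -0.19 in HepG2 and -0.04, -0.02 and 0.38 under the Hep3B label. PDCD4, which blocks the helicase eIF4A, was among those lower. Its FPKM was 25.2 in HepG2 control, 14.8 after NaB, 11.03 after Cur+Pip and 6.84 after the combination. In the libraries labelled Hep3B PDCD4 was at 137, 30.9, 60.7 and 39.3 FPKM, so control was highest in each line. MKNK2, a kinase of eIF4E, was the highest of the list after the combination in HepG2, at 87.3 against 27.5 FPKM, a log2 fold change of 1.63.

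Initiation partners and elongation factors passed in 1, 2 and 2 of 22 genes in HepG2 and in 2, 1 and 3 under the Hep3B label, beside the same shares of all genes. Among genes listed in both libraries of a comparison, HepG2 had 0 higher and 0 lower, 1 and 0, and 0 and 0. Under the Hep3B label these counts were 1 and 1, 0 and 0, and 1 and 2. The list median was 0.02, -0.37 and -0.24 in HepG2 and 0.01, -0.09 and -0.27 under the Hep3B label. DOHH, which completes the hypusine of eIF5A, was the highest of this list after the combination in both lines. It was at 34.8 against 16.4 FPKM in HepG2 (log2 fold change 1.04) and at 34.2 against 10.1 FPKM under the Hep3B label (1.67). EEF1B2, an exchange factor of elongation, was the lowest under the Hep3B label, at 19.1 against 364 FPKM, a log2 fold change of -4.19 that is -1.58 on shared-base depth.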

How the data were processed

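The RNA of 8 libraries, 1 per condition and line, was sequenced. RNA was isolated in triplicate per the study's methods, and whether it was pooled was not stated. Per those methods the authors used STAR on GRCh38 and then Cufflinks in each library alone. FastQC and Cuffdiff are named too in the submitters' processing notes, with no versions. The authors deposited FPKM with a lower and an upper bound for every assembled transcript, and an isoform score that was not used.

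Each transcript was given to the GENCODE release 44 gene that held at least 50% of its exonic bases on its strand (bedtools 2.31.1), and FPKM were summed per gene. A fold change is the difference of log2(FPKM + 1) from the control of the line, and the threshold was 1.5. Genes needed 1 FPKM in 1 library. Gene intervals add the half-widths of transcripts in quadrature and cover the error of estimating 1 library. limma 3.58.1 (R 4.3.3) was fitted to 15447 genes with Benjamini-Hochberg adjustment and tested on simulated data. Depth was estimated from coverage as 25.6 to 35.7 M fragments.

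Given in full were the kinases, the 4E-BP genes, EIF2S1, EIF4E, EIF4G1, EIF4A1, EIF4A2, EIF5A, EIF6, and members past the threshold with disjoint intervals or called for the line with a log2 difference over 1. In other lists the genes highest or lowest after the combination were named, among those listed in both libraries. The members and lists were chosen with earlier results of these data known. Alternatives were a pseudocount of 0.1 or 5, no filter or 5 FPKM, median-of-ratios scaling, the largest transcript, depth apportioned over annotated bases covered in any library, disjoint intervals, genes listed in all libraries, a trended variance and each library left out. Shared-base depth, over at least 100 bases, was added after seeing the data.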

Additional observations from a re-analysis of the deposited data

Results flagged for a closer look

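For 4 genes the difference from control had opposite signs in the 2 lines. It was over 1 on the log2 scale in one line and over 0.5 in the other. Each value rests on 1 library, and the difference between the lines was not tested. The share of all genes that meet this rule was not counted, so the genes are listed as a description only. After NaB, EIF2AK4 had a log2 fold change of 1.74 in HepG2 and -0.64 under the Hep3B label (1.74 and -0.31 on shared-base depth). The shared bases lie in the second part of the gene, which the short transcript of the HepG2 NaB library covers. With apportioned depth the value in HepG2 was 0.34. After NaB, EIF2S2 had -1.12 in HepG2 and 0.57 under the Hep3B label (-0.98 and 0.50 on shared-base depth), and with apportioned depth the signs were the same in both lines (-0.87 and -0.05). EIF4A1 after NaB had -1.66 in HepG2 and 0.51 under the Hep3B label (-1.29 and 0.82 on shared-base depth). After Cur+Pip, EIF2S3B had -0.81 in HepG2 and 1.45 under the Hep3B label (-0.81 and 0.83 on shared-base depth), at levels of 1.14 to 4.89 FPKM.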

How the results depend on the processing

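Counts of members past the fold threshold moved with how a gene's level was built, and the cause was not tested beyond the transcript structures given above. After NaB in HepG2 the count of 6 was 3 with apportioned depth, 2 among genes listed in all 4 libraries and 3 on shared-base depth. Genes listed in all 4 libraries gave 0 in place of 3 after Cur+Pip and 2 in place of 5 after the combination in HepG2. Under the Hep3B label the 0 after NaB was 1 with a pseudocount of 0.1 or with the largest transcript, and the 0 after Cur+Pip was 1 with a pseudocount of 0.1. The 2 after the combination were 1 with median-of-ratios scaling, the largest transcript, genes listed in all 4 libraries or shared-base depth, and 0 with apportioned depth. The fold change of EIF2S1 after the combination in HepG2 turned from 1.56 to -0.041 with apportioned depth. The 4 members called for the line were 2 with a pseudocount of 0.1, 7 with apportioned depth, 10 among genes listed in all 8 libraries, 10 on shared-base depth, and 0 to 1 with each library left out.

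The ratio of 4E-BP genes to EIF4E with apportioned depth was 4.28, 2.76, 3.58 and 1.40 in HepG2 control, NaB, Cur+Pip and combination, and 5.74, 3.67, 10.4 and 10.8 under the Hep3B label. With the largest transcript it was 4.25 after Cur+Pip and 1.56 after the combination in HepG2, and 3.47 after NaB and 5.94 after the combination under the Hep3B label. Shared-base depth gave 3.15 after Cur+Pip in HepG2 and 4.47 after the combination under the Hep3B label. Of 89 fold changes of the members given in full, 87 kept their direction with median-of-ratios scaling, 71 with the largest transcript and 76 with apportioned depth, as did 76 of 84 on shared-base depth. The 0 calls for each treatment in both lines stayed 0 under all alternatives run. No paired analysis was possible because each group holds 1 replicate, so no replicate numbers pair samples within a line. The limma fit has the line as a term and so compares treated with control within each line. With 1 library per condition, differences between cultures could not be estimated.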
